A study of Homo sapiens with 8 samples.

Results

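The sites described here are the 1187 DAXX peaks that were called at promoters in DAXX knockdown (K/D) PC3 cells and had no counterpart in wild type (WT) PC3 cells. They were chosen by the peak calls themselves. A peak of the K/D DAXX list was taken where its centre lay 1000 bp upstream to 100 bp downstream of a transcription start site (TSS) of a protein-coding gene and where it shared no base with any peak of the WT DAXX list. These were 1187 of 42876 K/D DAXX peaks, and 1187 of 3056 K/D DAXX peaks at promoters (38.8%, exact 95% interval 37.1 to 40.6). Over all K/D DAXX peaks 32.6% had no WT counterpart. As the absence of a WT peak is the rule of choice, these shares describe the set and test nothing.

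PC3 cells are an established line of human prostate cancer that came from a bone metastasis. ChIP-Seq, which sequences the DNA that an antibody pulls down with its protein, was performed with antibodies to DAXX, to DNMT1 and to histone H3 marked at Lys4, in PC3 cells carrying a stable DAXX shRNA and grown with puromycin, and in PC3 cells labelled wild type. The series text describes the control as a control shRNA line, so WT stands for either. There was 1 library per antibody and cell line, with no replicates, and input chromatin of each line served as control for peak calling. The label of the histone antibody does not spell out the methylation state, and the mark is called H3(Lys4). A knockdown leaves part of the protein, the amount of DAXX left in the K/D cells was not analysed here, and a peak in K/D cells is a site called with the DAXX antibody in those cells.

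DAXX is a chaperone of the histone variant H3.3 and a transcriptional co-repressor that has no DNA-binding domain of its own and reaches chromatin through other proteins. Promoters of widely expressed genes often lie in CpG islands, stretches of GC-rich DNA that keep their CpG sites. Histone H3 methylated at Lys4 flanks active start sites, and DNMT1 copies DNA methylation onto the new strand after replication.

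Several of these sites are shown first, since their sequence is what could be compared apart from the peak calls. Each line is a whole peak from GRCh37 (hg19), read 5′ to 3′ on the strand of the gene, and each lies upstream of the TSS and outside annotated exons. They are examples of such sites with the motif inside the peak, and not always the first in the deposited order. Capitals mark the match to the motif named, on either strand, and a match is a description of letters and not a bound factor. EPC1, a subunit of a histone acetyltransferase complex, held the AP-1 word TGACTCA, the site read by FOS and JUN dimers.
EPC1 (chr10:32668632-32668802, minus strand): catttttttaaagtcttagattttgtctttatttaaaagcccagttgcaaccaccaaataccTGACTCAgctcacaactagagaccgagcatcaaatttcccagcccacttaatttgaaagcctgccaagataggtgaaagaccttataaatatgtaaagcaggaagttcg

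TPM3, an actin-binding tropomyosin, and KRTAP13-2, a hair keratin-associated protein, held a nuclear receptor half-site, TGACCTT or TGACCTC on either strand.
TPM3 (chr1:154155871-154156041, minus strand): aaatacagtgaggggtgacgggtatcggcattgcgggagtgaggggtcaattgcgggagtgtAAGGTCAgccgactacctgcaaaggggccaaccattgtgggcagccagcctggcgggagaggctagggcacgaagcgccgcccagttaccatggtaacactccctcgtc
KRTAP13-2 (chr21:31744733-31744903, minus strand): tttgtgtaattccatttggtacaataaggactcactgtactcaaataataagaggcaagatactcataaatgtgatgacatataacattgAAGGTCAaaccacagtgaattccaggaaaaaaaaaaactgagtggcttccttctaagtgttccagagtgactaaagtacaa

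CDC5L, a splicing factor, and SLC49A4, a transporter-family membrane protein, held the cyclic AMP response element (CRE) TGACGTCA. UXS1, which makes UDP-xylose, held a match to NRF1, a regulator of nuclear genes for mitochondrial proteins. KLHL20, an adaptor of a cullin ubiquitin ligase, held the ETS word CCGGAAGT on the opposite strand, and ETFB, an electron carrier of mitochondrial fatty acid oxidation, held 2 inverted CCAAT boxes, the site of NFY. BHLHE40, a clock-related repressor, held the SP1 word GGGCGG on the opposite strand.
CDC5L (chr6:44355144-44355314, plus strand): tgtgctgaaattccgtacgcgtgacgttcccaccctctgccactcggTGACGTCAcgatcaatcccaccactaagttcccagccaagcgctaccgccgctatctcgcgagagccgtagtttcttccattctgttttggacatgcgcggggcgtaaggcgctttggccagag
SLC49A4 (chr3:122513524-122513694, plus strand): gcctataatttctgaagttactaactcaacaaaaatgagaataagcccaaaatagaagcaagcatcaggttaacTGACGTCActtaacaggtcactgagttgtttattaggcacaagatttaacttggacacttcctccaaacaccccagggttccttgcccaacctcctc
UXS1 (chr2:106810877-106811047, minus strand): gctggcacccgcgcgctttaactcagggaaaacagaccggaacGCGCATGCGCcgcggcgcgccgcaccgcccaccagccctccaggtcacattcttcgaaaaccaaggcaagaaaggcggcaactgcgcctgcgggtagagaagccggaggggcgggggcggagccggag
KLHL20 (chr1:173683893-173684063, plus strand): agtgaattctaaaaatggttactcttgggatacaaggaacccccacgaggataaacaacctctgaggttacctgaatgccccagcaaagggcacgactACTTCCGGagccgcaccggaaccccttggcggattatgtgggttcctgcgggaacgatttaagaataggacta
ETFB (chr19:51869684-51869854, minus strand): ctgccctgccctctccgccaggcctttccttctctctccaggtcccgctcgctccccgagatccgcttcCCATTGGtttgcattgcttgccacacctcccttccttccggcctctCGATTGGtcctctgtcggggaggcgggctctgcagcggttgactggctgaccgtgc
BHLHE40 (chr3:5020306-5020476, plus strand): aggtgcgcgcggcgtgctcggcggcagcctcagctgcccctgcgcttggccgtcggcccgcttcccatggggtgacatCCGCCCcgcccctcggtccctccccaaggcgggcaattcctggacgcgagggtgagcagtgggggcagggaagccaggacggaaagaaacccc

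The sites came late in the K/D list. The lists carry the same score for every peak, so the strength of a peak is not given, and place in the deposited order was used in its stead. Their median place was 69.9% of the way down the K/D DAXX list (quartiles 50.8 and 84.3%), against 33.8% for the 1869 promoter peaks that lay on a WT peak, called kept below. A late place was not particular to these sites. Distal K/D-only peaks had a median place of 74.1%, and promoter peaks of WT cells with no K/D peak had one of 65.1% in the WT DAXX list. Of the promoter peaks in the first 10% of the list, 1.95% (6 of 308) had no WT peak. The share was 37.3% (118 of 316) in the fifth of these 10 equal parts and 76.8% (182 of 237) in the last. Only 289 of the 1187 sites were in the first 50% of the list and 494 were in the last of 4 equal parts.

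**Figure D1:**
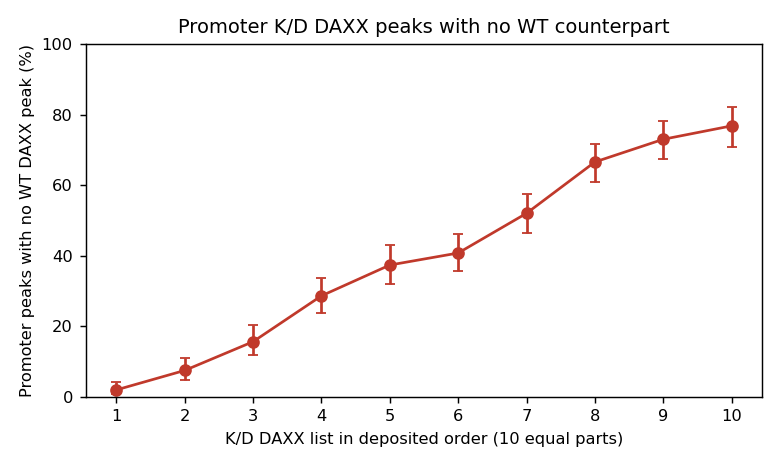
Share of promoter K/D DAXX peaks with no WT DAXX peak (y axis, %) by part of the K/D DAXX list in deposited order (x axis, 10 equal parts), with exact 95% intervals for counting error. The share was 1.95% in the first part and 76.8% in the last.

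The earliest site was that of KLHL20, at place 1947 and -142 bp from the start site. No WT DAXX peak lay within 44160 bp of it, and it was on no H3(Lys4) region of either line. TPM3 came next at place 3875, with its centre at -270 bp and 546 bp from a WT DAXX peak, on an H3(Lys4) region in both lines. SLC19A2, a thiamine transporter, followed at place 4002, with its centre at -117 bp. ADO, a thiol dioxygenase, was at place 4074, KRTAP13-2 at place 4123 and DNAJC11, a mitochondrial J-domain protein, at place 4285. ETV1, an ETS factor, was at place 4632 with its site at -185 bp and 10039 bp from a WT peak. ZNF775, a zinc finger gene, was at place 5025, but with a WT DAXX peak only 19 bp away. SETDB1, the histone H3 Lys9 methyltransferase, was at place 5316 with its site at -42 bp and 3407 bp from a WT peak. OTUD6B, a deubiquitinase, closed the first 10 at place 5421, with a K/D DNMT1 peak on the site.

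Most of the centres lay close to the start site. Their median distance was -121 bp (negative is upstream, quartiles -311.5 and -23.5), against -130 bp in kept peaks and -132 bp in the 2348 promoter peaks of WT cells with no K/D peak, called lost below. Of the sites 83.7% were upstream, against 85.6% of kept and 84.6% of lost peaks. The rule takes in 1000 bp upstream and only 100 bp downstream, so this majority follows largely from the rule. Within 200 bp of the TSS lay 751 sites (63.3%), against 62.9% of kept and 61.1% of lost peaks. An annotated exon shared a base with 724 sites (61.0%). A second gene started within the promoter window at 103 sites (8.68%), among them PRPF4 with CDC26, and EIF2B4 with SNX17.

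**Figure D2:**
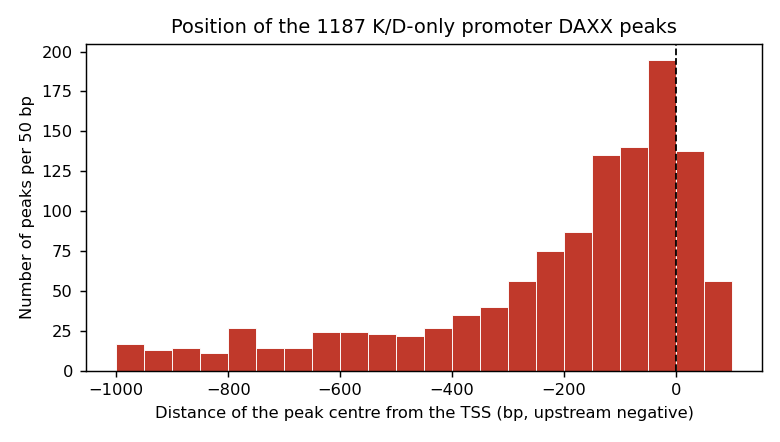
Number of the 1187 sites per 50 bp (y axis) by the distance of the peak centre from the TSS (x axis, bp, upstream negative, dashed line at the TSS). The TSS is the nearest protein-coding one whose promoter window holds the centre. The median distance was -121 bp.

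Some of the sites lay close to a WT DAXX peak that did not reach them. The median distance to the nearest WT peak was 6926 bp (quartiles 1257.5 and 22554), against 10974.5 bp in distal K/D-only peaks. Lost peaks had a median of 11584 bp to the nearest K/D peak. That distance is not like for like, as 42876 K/D peaks and 59761 WT peaks were used. For the sites the distance was at most 100 bp for 39, at most 500 bp for 178 (15.0%) and at most 10000 bp for 672 (56.6%). At the edges of the rule, the site of COX20, an assembly factor of cytochrome c oxidase, touched a WT peak (0 bp), WDR37 was 1 bp away and ZNF234 was 4 bp away, while the peak of URB1 shared 4 bp with a WT peak and was therefore not taken. Likewise PITPNB at -1000 bp was taken, whereas TBCC at -1005 bp was not. The downstream edge fell between MTRES1 at 100 bp and QRICH1 at 105 bp. Among the farthest from any WT peak were ZNF430 (1448520 bp) and M6PR (698379 bp), the second a receptor that carries lysosomal enzymes.

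The sites marked 1267 of 19785 protein-coding genes (6.40%), and 6.4% is the background for the gene groups below. Of these 1267 genes 993 (78.4%) had no kept or lost DAXX peak in a promoter. A kept promoter peak was also present at 95 of them, and a lost one at 195. Thus 179 genes had a K/D-only peak and a lost WT peak but no kept one. FOXP1, a forkhead repressor, was the sole gene with 3 such peaks, at 3 different start sites, and 28 genes had 2, among them HOXA5 and MAFF. Over all protein-coding genes 9.86% had a kept and 12.1% a lost promoter peak, against which the kept and lost counts of each list are read. At those rates most protein-coding genes had neither, so the 78.4% does not set the 1267 genes apart. By chromosome, the K/D-only share of promoter peaks ranged between 32.6% (15 of 46, chromosome 18) and 44.6% (33 of 74, chromosome 22).

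DAXX itself was among the genes. The K/D peak at its promoter (chr6:33290779-33290949) was at -71 bp from the start site, at place 21283 of the list and 2376 bp from the nearest WT DAXX peak. No H3(Lys4) region lay on it, but a K/D region lay 153 bp away and a WT region 176 bp away. Among 26 genes of DAXX partners, H3.3 and PML bodies, 5 had a K/D-only promoter peak, among them DAXX, SP100 (a PML body protein), ASF1B (a histone chaperone) and SETDB1. Kept peaks were found at 4 of the 26 and lost peaks at 1, against the 9.86% and 12.1% of all genes. These sites differed among themselves, with ASF1B on an H3(Lys4) region in K/D cells only, SP100 on one in WT cells only, and SETDB1 and DAXX on neither.

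Autophagy genes, a subject of the study, had 6 of 48 members with such a site, with kept peaks at 7 (14.6%) and lost peaks at 5 (10.4%). The site of ULK1, a kinase at the start of autophagy, was at -224 bp from the TSS, at place 30232 and 1628 bp from a WT peak. ATG5, part of the LC3 conjugation machinery, and MAP1LC3B, an LC3 protein, had sites at places 21307 and 15447. VMP1, an endoplasmic reticulum protein of autophagosome formation, had one at -956 bp, on an H3(Lys4) region in both lines, and the proteases ATG4B and ATG4C had theirs at places 35673 and 35255. Of the 6, ATG5 and MAP1LC3B were in the first 50% of the list.

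The other lists were read against 6.4% of all genes, with no test. The share was above it in 20 of 31 lists and below it in 11. Genes of epithelial-mesenchymal transition and invasion had 7 of 33 (SNAI1, FN1, ITGAV, ITGB4, MMP9, CD44 and ESRP2), of which SNAI1 is a repressor of E-cadherin, FN1 is fibronectin and MMP9 a gelatinase. Lost peaks were at 7 of the 33 too, and kept peaks at 3. Their places included 39909 for SNAI1, 39904 for MMP9 and 25365 for FN1. The NF-kB pathway had 5 of 24, which were NFKB2, RELA, TRAF6, BCL3 and BCL10, with RELA, its transactivating subunit, at -20 bp and place 18166, and kept and lost peaks were also at 5 of 24 each. Heat shock proteins and chaperones had 7 of 42, with HSP90B1, HSF2 and HSPA9 among them, and kept and lost peaks at 9 each. NADH dehydrogenase subunits had 6 of 39, with kept peaks at 8 and lost peaks at 7. Mitochondrial ribosomal proteins had 11 of 77, a count that equalled both the kept and the lost count in that list.

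No K/D-only site lay at a replication-dependent histone gene (0 of 69) or an olfactory receptor gene (0 of 391), where kept peaks were found at 3 and 0 genes. Immediate early genes had 3 of 25 (IER2, KLF4 and DUSP6), with lost peaks at 10 of 25, and the FOS and JUN family had MAFF alone of 16, with lost peaks at 6, where 12.1% of all genes had a lost peak. Lysosome and v-ATPase genes had 2 of 43 (ASAH1 and PSAP), with kept peaks at 14 and lost peaks at 9. Zinc finger (ZNF) genes had 44 of 512 and solute carriers 29 of 340, which are 8.59% and 8.53%.

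**Figure D3:**
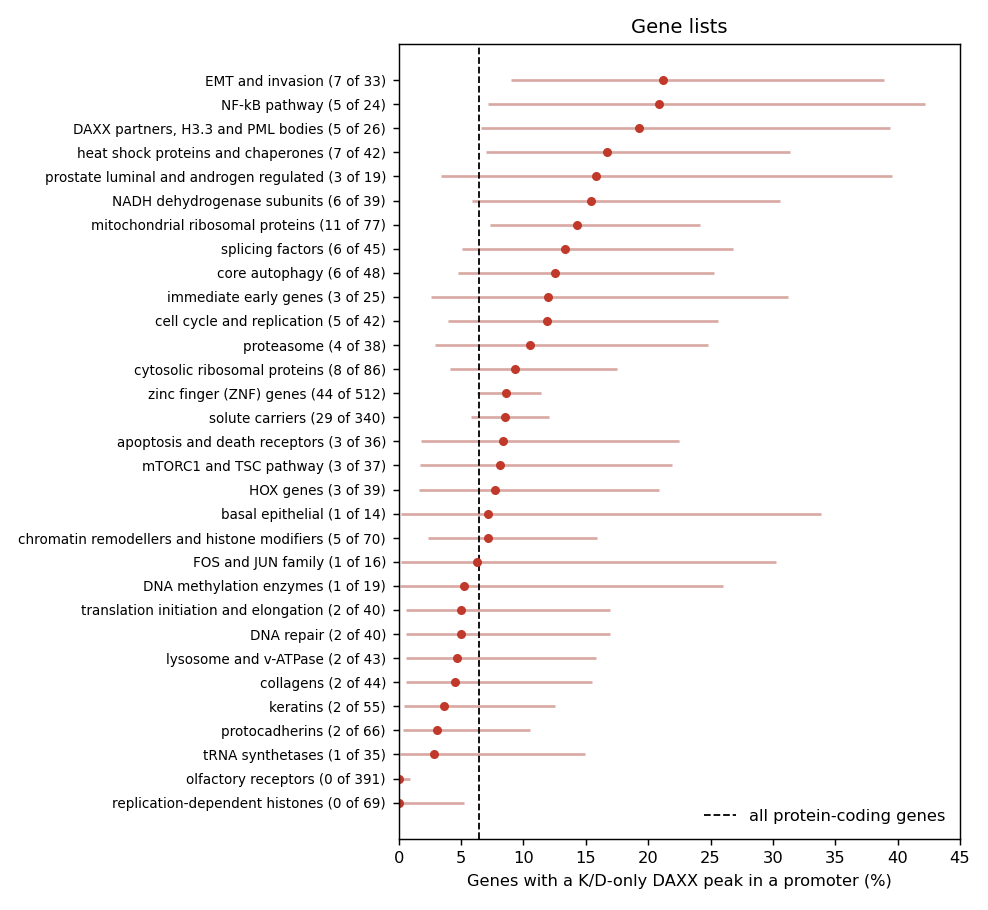
Percent of the genes of each list that had a K/D-only DAXX peak in a promoter (x axis), with exact 95% intervals for counting error and the number of genes in brackets. The dashed line is the share over all protein-coding genes, 6.40%. Genes of invasion, of NF-kB signalling and of DAXX partners were at the top, and olfactory receptor and histone genes were at 0.

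The sites met CpG-island criteria more often than kept promoter peaks. These criteria (a window of 501 bp with a GC content of at least 55% and an observed to expected CpG ratio of at least 0.65) were met by 61.4% (729 of 1187, exact 95% interval 58.6 to 64.2), against 55.2% (1031 of 1869) of kept peaks and 56.7% (1332 of 2348) of lost peaks. The odds ratio was 1.29 (95% interval 1.12 to 1.50, adjusted p = 0.00181, Fisher's exact test, two-sided, over peaks) against kept peaks and 1.21 (1.05 to 1.40, adjusted p = 0.0196) against lost peaks. All protein-coding start sites in the same position met them in 53.9%. Among the 12788 distal K/D-only peaks 2.63% met them, an odds ratio of 59.0 (50.3 to 69.2), with a median GC content of 62.5% in the sites and 41.5% in distal peaks. The rule sets the sites apart from distal peaks by nearness to a TSS. Here and below, comparisons with distal peaks therefore describe that placement and are no test of K/D-only calling. Within 4 equal parts of the list the Mantel-Haenszel odds ratio was 1.47 (95% interval 1.24 to 1.75) against kept peaks. Against lost peaks it was 1.22 (1.05 to 1.40), with lost peaks placed in the WT DAXX list and the sites in the K/D DAXX list. The call against kept peaks was lost in the first 50% of the list (1.38, adjusted p = 0.0676, exact test) and that against lost peaks with a promoter of 500 bp upstream (1.13, adjusted p = 0.232). Tests over peaks compare these libraries, in which peaks are not replicates of a condition.

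Of the 20 motifs searched, AP-1 had the lowest odds ratio against both kept and lost promoter peaks. TGACTCA or its complement TGAGTCA lay within 100 bp of the centre of 66 sites (5.56%, exact 95% interval 4.33 to 7.02), against 279 kept peaks (14.9%), 233 lost peaks (9.92%) and 3471 distal K/D-only peaks (27.1%). The odds ratio was 0.336 (0.254 to 0.443, adjusted p = 7.36e-16, the same exact test) against kept, 0.534 (0.403 to 0.709, adjusted p = 1.96e-05) against lost and 0.158 (0.123 to 0.203, adjusted p = 6.20e-76) against distal peaks. The share was lower than in kept peaks in each of 4 equal parts of the list, at 4.44, 6.97, 4.95 and 5.47% against 16.0, 15.5, 13.6 and 12.1%. In lost peaks, by parts of the WT DAXX list, the share was 18.7, 14.4, 7.69 and 7.28%, so the difference from them was smaller late in the lists. Over all 55754 protein-coding start sites it was 2.52%. FOXA1, a luminal pioneer factor, ITGB4 and MMP9 were among the sites with the word, besides EPC1 printed above. An AP-1 match overlapped a CCAAT box at 2 sites and none of the CRE, half-site, NRF1, SP1 and ETS matches.

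The nuclear receptor half-site lay near 196 sites (16.5%), against 474 kept peaks (25.4%), 2863 distal K/D-only peaks (22.4%) and 298 lost peaks (12.7%). The odds ratio was 0.582 (0.484 to 0.701, adjusted p = 2.46e-08) against kept, 0.686 (0.585 to 0.804, adjusted p = 5.74e-06) against distal and 1.36 (1.12 to 1.65, adjusted p = 0.00585) against lost peaks, by the same exact test. All start sites held it in 5.24%. Within 4 equal parts of the list the Mantel-Haenszel odds ratio against kept peaks was 0.741 (0.598 to 0.919), a smaller difference than the pooled one. In these parts the half-site share was 26.7, 20.5, 12.6 and 16.8% in the sites, against 30.8, 24.9, 19.8 and 17.9% in kept peaks. The Mantel-Haenszel odds ratio was 0.685 against distal and 1.39 against lost peaks, the latter placed in the WT DAXX list. In the first 50% of the lists, with 289 sites left to test, none of these 3 differences passed the exact test, with odds ratios of 0.695 (adjusted p = 0.0676), 0.792 (adjusted p = 0.287) and 1.49 (adjusted p = 0.0865). Against lost peaks the call was also lost with a promoter of 500 bp upstream (1.31, adjusted p = 0.0536, exact test).

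For words typical of promoters no difference from kept peaks passed the pooled test. GGGCGG lay near 47.6% of the sites, 47.9% of kept peaks (odds ratio 0.989, 0.855 to 1.14), 51.8% of lost peaks and 49.3% of all start sites. Against lost peaks its odds ratio was 0.844 (0.734 to 0.971, adjusted p = 0.0413, exact test), a call lost under 6 alternatives (adjusted p 0.0506 to 0.478). CCAAT boxes (CCAAT followed by CA, CG, GA or GG) lay near 12.9%, against 11.3% of kept peaks (odds ratio 1.16, 0.931 to 1.45, adjusted p = 0.306, exact test), 10.7% of lost peaks and 15.8% of all start sites. Compared within 4 equal parts of the list, where late and early peaks are kept apart, the Mantel-Haenszel odds ratio was 1.74 (95% interval 1.34 to 2.26) for CCAAT boxes and 1.66 (1.09 to 2.54) for NRF1. The CRE lay near 28 sites (2.36%), 24 kept peaks (1.28%, adjusted p = 0.0624, exact test) and 1.78% of all start sites. NRF1 matches lay near 5.14% of the sites and 5.42% of all start sites, and the ETS word near 4.47% and 3.50%. Of the 20 motifs, none was called higher and 2 were called lower against kept peaks (AP-1 and the half-site), and 192 sites (16.2%) held none of the 20.

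**Figure D4:**
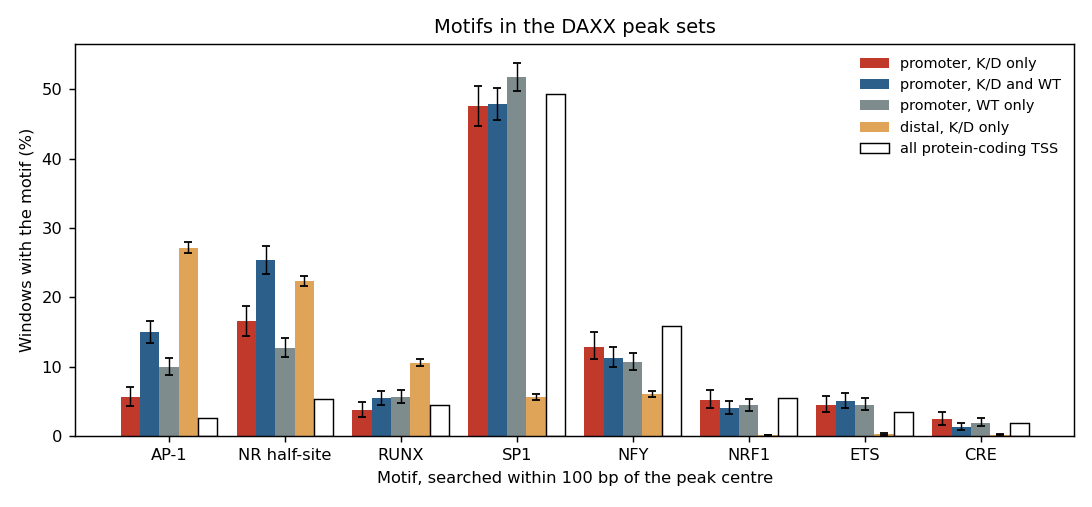
Percent of windows with each motif (y axis) for 8 of the 20 motifs searched (x axis), for the K/D-only promoter sites, kept promoter peaks, lost promoter peaks and distal K/D-only peaks, with exact 95% intervals for counting error, and for all protein-coding start sites. The AP-1 share was 5.56% in the sites, 14.9% in kept and 27.1% in distal peaks.

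H3(Lys4) regions lay on the sites in similar numbers in both lines. A K/D region lay on 459 sites (38.7%, exact 95% interval 35.9 to 41.5) and a WT region on 469 (39.5%, 36.7 to 42.4), where 28.7% and 30.7% of all K/D DAXX peaks did. Both lines had a region on 232 sites (19.5%), K/D cells alone on 227 (19.1%), WT cells alone on 237 (20.0%) and neither on 491 (41.4%). CHMP4B, M6PR, RBM25, BLOC1S5 and KPNB1 were the first with a K/D region alone, and DNAJC11, CA2, RAD51C, EYA3 and ALKBH2 the first with a WT region alone. Counting regions beside the sites as well, 1026 sites (86.4%) had a region of at least 1 list within 500 bp. Other promoter peaks were similar where each list was counted alone. A WT region lay within 500 bp of 68.2% of the sites, 73.1% of kept and 74.0% of lost peaks. For K/D regions these shares were 65.4, 63.7 and 61.2%.

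CpG-island criteria were met by 67.0% of the 491 sites on no region, 62.4% of those on a WT region alone, 57.7% of those on a K/D region alone and 52.2% of those on both. CCAAT boxes lay near 16.1% of the sites on no region and 9.05% of those on both. The median distance from the start site was -104 bp on no region and -195.5 bp on both. These subsets are given as a description.

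Against kept peaks, the K/D H3(Lys4) comparison turned with the place in the list. The pooled share was higher in the sites, 38.7% against 31.7% of kept peaks (odds ratio 1.36, 1.17 to 1.58, adjusted p = 0.00022, the same exact test). Both sets gained regions down the list, and the sites came later in it. From the first to the last of 4 equal parts a K/D region lay on 17.8, 24.6, 34.4 and 51.0% of the sites, against 20.1, 32.6, 42.9 and 49.7% of kept peaks. Within these parts the Mantel-Haenszel odds ratio was 0.780 (95% interval 0.652 to 0.932), the reverse of the pooled one, and with regions within 500 bp the pooled one was 1.07 (0.923 to 1.25).

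WT H3(Lys4) was on fewer of the sites than of kept peaks, 39.5% against 43.7% (odds ratio 0.841, 0.725 to 0.975, adjusted p = 0.047, exact test). In the 4 parts of the list the shares were 17.8, 36.5, 37.1 and 44.9% in the sites, against 35.4, 44.5, 51.9 and 56.1% in kept peaks. The pooled difference did not pass the exact test with centres within 100 bp counted as 1 site (adjusted p = 0.191), with a promoter of 500 bp upstream (adjusted p = 0.197) or in the first 50% of the list (adjusted p = 0.183).

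**Figure D5:**
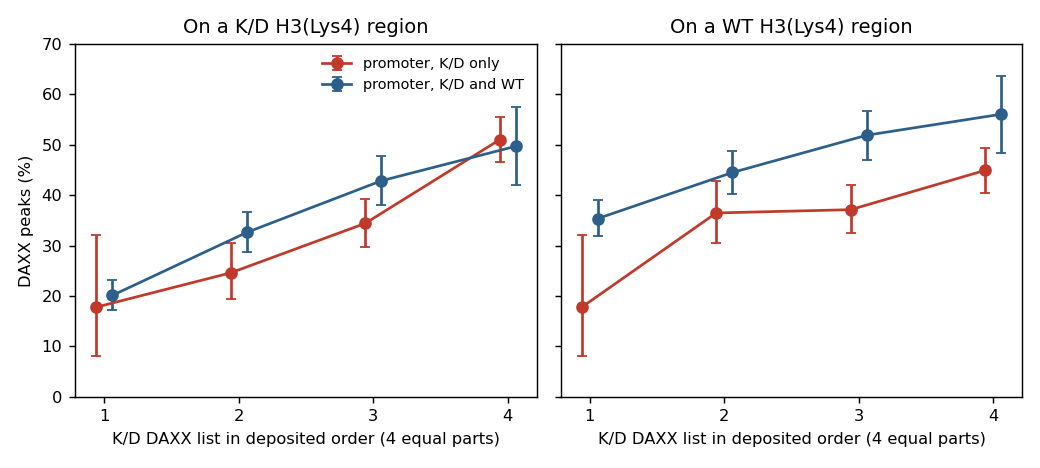
Percent of promoter DAXX peaks on a K/D H3(Lys4) region (left panel) and on a WT H3(Lys4) region (right panel), for K/D-only sites and kept peaks, by part of the K/D DAXX list in deposited order (x axis, 4 equal parts), with exact 95% intervals for counting error. The K/D share was 17.8% in the first part and 51.0% in the last for the sites, and 20.1% and 49.7% for kept peaks.

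The sites differed from lost promoter peaks in both lines. A K/D region lay on 38.7% of the sites against 27.9% of lost peaks (odds ratio 1.63, 1.41 to 1.89, adjusted p = 4.64e-10, exact test), and a WT region on 39.5% against 50.9% (odds ratio 0.629, 0.546 to 0.725, adjusted p = 5.07e-10). K/D cells alone had a region on 19.1% of the sites and 9.41% of lost peaks, and WT cells alone on 20.0% and 32.5%. In the first 50% of each list neither difference passed the exact test (adjusted p = 0.207 and 0.0961). The sites are drawn from the K/D library and the lost peaks from the WT library, so peak set and library cannot be told apart. Against distal K/D-only peaks, the sites were more often on a region of either line, with 39.5% against 19.5% in WT cells (odds ratio 2.69, 2.38 to 3.05, adjusted p = 6.38e-50, exact test) and 38.7% against 28.3% in K/D cells (odds ratio 1.59, adjusted p = 1.36e-12). In the first 50% of the list the K/D difference was not detected (odds ratio 1.01, 0.755 to 1.34). The sites and distal peaks differ by rule in nearness to a TSS, so this comparison describes promoter placement.

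DNMT1 was rarely called on the sites. A K/D DNMT1 peak lay on 5 of 1187 (0.421%), against 17 of 1869 kept peaks (0.910%, odds ratio 0.461, 0.170 to 1.25, adjusted p = 0.228, exact test), where 0.473% of all K/D DAXX peaks did. The odds ratio turned to 1.18 within 4 equal parts of the list and 1.36 in its first 50%. The 5 sites were at OTUD6B, ZHX1, CNPY2, C5orf52 and XNDC1N. A WT DNMT1 peak lay on 4 sites (0.337%, at CUEDC1, NFXL1, CETN3 and KRT15), against 30 kept peaks (1.61%, odds ratio 0.207, 0.0728 to 0.590, adjusted p = 0.00167, exact test) and 1.58% of all K/D DAXX peaks. Within the 4 parts of the list the WT DNMT1 odds ratio was 0.541, with an interval of 0.167 to 1.75 that held 1. With 595 K/D and 2234 WT DNMT1 peaks in all, small differences were not detectable.

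The K/D DAXX library had 18210051 tags with 6.83% in peaks, against 15208845 and 15.77% in the WT DAXX library, and the input comparison removed 48.8% against 34.3% of the putative peaks. A site with no WT peak is one not called there under these limits and not one shown to be free of DAXX. The part of these library differences in the K/D-only calls was not tested.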

How the data were processed

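Per the submitters' processing notes, CASAVA 1.8.2, Bowtie2 2.1.0 (on hg19) and HOMER 4.6 were used. The authors called the peaks of each list against the matched input, which the lists of a line share, keeping peaks with a 4-fold excess and a Poisson p-value of 0.0001 over input. The deposited values used are start and end positions, and the score is 1 for every peak, so deposited order replaced strength. Start sites (63781, of 19785 genes) came from GENCODE release 44 on GRCh37. Peaks on other contigs (113) were left out. The members and lists were chosen with earlier results of these data known.

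Shares carry exact 95% intervals for counting error. Sets were compared by two-sided Fisher's exact tests with Benjamini-Hochberg adjustment over 75 tests (25 measures, 3 comparison sets), or by Mantel-Haenszel odds ratios over 4 equal parts of the list, in Python 3.11.15 with scipy 1.17.1 and statsmodels 0.14.6. Place was taken in the K/D DAXX list, except for lost peaks, whose place is in the WT DAXX list. Parts compared with lost peaks are therefore parts of different lists. The comparison with lost peaks, the WT DNMT1 peaks and motifs other than AP-1 were added after seeing the data. Motifs were searched on both strands in 201 bp. Named sites were the first 10 in deposited order, up to 3 per gene list, the first 5 of each DNMT1 and H3(Lys4) class, genes with 3 sites and the extremes of distance to a WT peak. Others named were chosen after their values were seen. Some sites and sequences that this rule names are not reported here. The tests were checked on simulated data.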

Additional observations from a re-analysis of the deposited data

How the results depend on the processing

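Of 97 values of the share, H3(Lys4), DNMT1, CpG-island, AP-1 and half-site results recomputed under an alternative, 75 kept their direction and side of the threshold, 15 lost the call, 4 reversed and 3 shares moved. AP-1 kept its call against all 3 comparison sets in every alternative run, of which the distal set differs from the sites by rule in nearness to a TSS. The K/D-only share of promoter peaks was 41.3% with centres within 100 bp counted as 1 site, 33.0% with no WT peak within 500 bp and 18.5% in the first 50% of the list. K/D H3(Lys4) against kept peaks reversed to an odds ratio of 0.897 in the first 50% and 0.780 within 4 equal parts of the list, and was 1.07 with regions within 500 bp. K/D DNMT1 against kept peaks, never called, was 1.36 in the first 50% and 1.18 within 4 equal parts of the list. WT H3(Lys4) against kept peaks was 0.606 within 4 equal parts of the list. It was no longer called with centres within 100 bp (0.887), a 500 bp promoter (0.871) or the first 50% (0.779). In the first 50% these were not called either: K/D H3(Lys4) against distal peaks (1.01), CpG-island criteria against kept peaks (1.38), and against lost peaks the regions of K/D cells (1.34) and of WT cells (0.729). CpG-island criteria against lost peaks were 1.13 with a 500 bp promoter. Outside these 97, the other motifs were run under the same alternatives. SP1 against lost peaks lost its call in 6, RUNX against lost peaks in 3 (adjusted p 0.143 to 0.287), and the CRE against kept peaks gained one without chromosomes 8 and 10 (2.00, adjusted p = 0.041, exact test). Calls were also gained within 4 equal parts of the list. These were CCAAT boxes (1.74) and NRF1 (1.66) against kept peaks, and CCAAT boxes against lost peaks (1.33, with lost peaks in parts of the WT DAXX list). The cause of these changes was not tested, and only 289 sites were left in the first 50%. No paired analysis was possible because each group was 1 library, which also left no replicate to omit.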
